A study of Mus musculus with 6 samples.

Results

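Neuro-2a cells overexpressing the long noncoding RNA lncPim1 were compared with control Neuro-2a cells by RNA sequencing. Neuro-2a is a mouse neuroblastoma line, an immortal culture of sympathetic-neuron-like tumour cells that can extend neurites. The comparison uses 4 of the 6 libraries of the series, 2 from control cells labelled wild type and 2 from cells labelled as overexpressing lncPim1. In the other 2 libraries lncPim1 was lowered by RNA interference, and these share the same controls. Values are FPKM, a fragment count divided by transcript length and library total, so levels can be compared between genes. Genes entered the comparison when their mean over the 6 libraries was at least 1 FPKM, which 10721 of 21878 rows met. The labels give no vector, promoter, clone, dose or time for the overexpression, no empty vector for the control and no injury treatment for any of these samples. Whether libraries with the same label were grown as separate cultures is not stated, and p-values thus measure only the spread between libraries, which may be technical. lncPim1 itself was not analysed here, since 0 rows carry its name, and the overexpression could not be checked on the RNA itself.

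Long noncoding RNAs are transcripts without a protein product, and some of them act on the expression of other genes. Several of the gene groups described here belong to the response run by NRF2, a transcription factor encoded by Nfe2l2. KEAP1 marks NRF2 for destruction in unstressed cells. Oxidants and electrophiles release it, and it then switches on enzymes that make glutathione, reduce thioredoxin and quinones, and supply NADPH. Neuroblastoma cells also carry a sympathetic neuron programme, with receptors for acetylcholine, synaptic vesicle proteins and neuronal tubulin.

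Overexpression was accompanied by small changes in few genes, and genes that rose had lower control levels than genes that fell. Single enzymes of the NRF2 response, such as Srxn1, Txnrd1 and Nqo1, the chemokines Ccl5 and Cxcl10, the caveolar protein gene Prkcdbp and the matrix genes Fkbp10, Col4a1 and Igfbp7 rose, while most genes of their lists were not called. The matrix genes Matn3, Tnr and Wfdc1, 4 of 39 synaptic vesicle genes, and the receptor genes Htr3a and Chrna3 fell. Genes on chromosome 13 were lower as a block. With limma and a Benjamini-Hochberg adjusted p under 0.05, 165 genes (1.54%) were called, 74 higher (0.69%) and 91 lower (0.849%). These shares are the background for the counts of called genes given for each list below. At an unadjusted p under 0.05 there were 846 higher and 987 lower. The median log2 fold change, on log2(FPKM + 1), was 0.54 among called rises and -0.40 among called falls, and the median over all tested genes was -0.00. Only 6 rises and 1 fall reached 1 on that scale. Of these, the rises Lgals7 and Pnlip and the fall Reg3b passed the filter only through the group where they are high. Median control level was 5.43 FPKM for genes that rose, 18.5 for genes that fell and 9.56 for all tested genes. The filter counts the overexpression libraries, so a gene low in controls could pass it by rising. How much this adds to the difference in level was not tested. All 165 called genes had groups that did not overlap, as did many uncalled ones: both overexpression libraries lay above both controls in 2498 genes (23.3%) and below them in 2813 (26.2%).

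**Figure D1:**
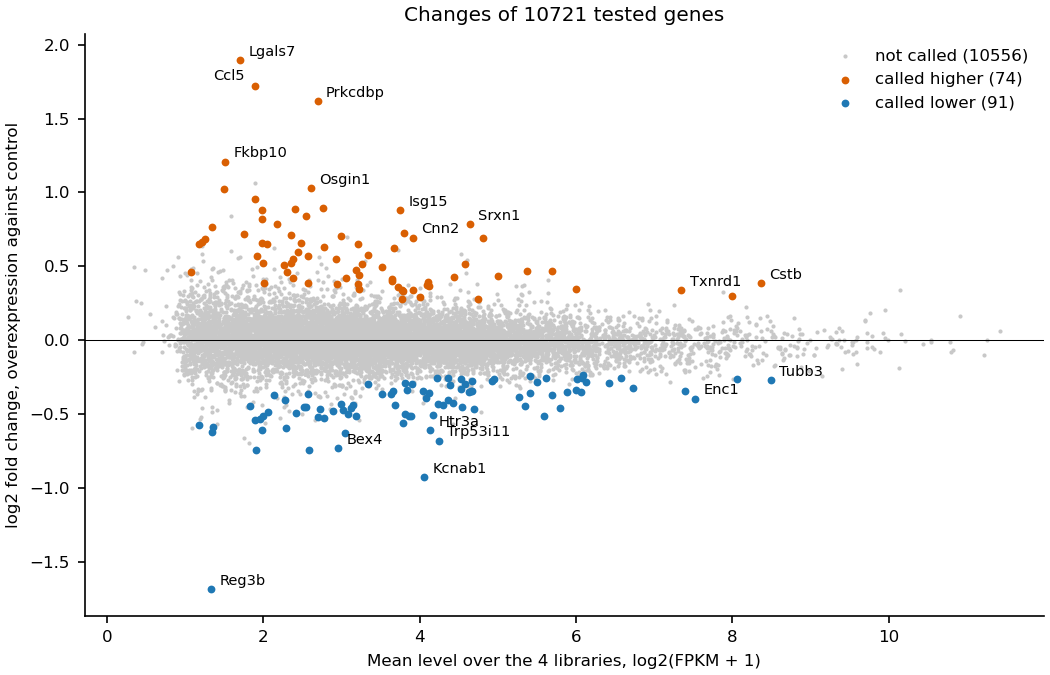
Each point is 1 of 10721 tested genes, with its mean level over the 4 libraries in log2(FPKM + 1) on the horizontal axis and its log2 fold change, overexpression against control, on the vertical axis. The 74 genes called higher (orange) lie mostly to the left of the 91 called lower (blue), and 6 rises and 1 fall reach 1 on the vertical axis.

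The number of calls rests on every library of the comparison. It was 14 without control 1, 27 without control 2, 20 without overexpression 1 and 46 without overexpression 2, against 169 and 172 without a knockdown library. Each of the first 4 fits leaves 1 group with a single library, which is assumed to vary like the others. Called in all 6 of these fits were Cnn2, Fkbp10, Igfbp7, Lgals7, Npy, Plekhg1, Prkcdbp and Srxn1 among the rises and Reg3b among the falls. Of these genes, Lgals7 reached the mean of 1 FPKM only through the overexpression libraries and Reg3b only through the controls. Each was thus tested because it is high there, and the filter was not redone when a library was left out. Summed FPKM ranged from 294510 to 305463 over the 4 libraries. Over tested genes the Spearman correlation of the controls with each other was 0.997, that of the overexpression libraries 0.996, and that of libraries of different groups 0.992 to 0.994. Genes that rose had a median transcript length of 2493 bases, those that fell 3150 and all tested genes 3420, and GC content was 52.8%, 47.8% and 49.9%.

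The thioredoxin and peroxide enzymes held 3 called genes of 21 tested, all higher, against 0.69% of all tested genes called higher. Srxn1 encodes sulfiredoxin, which repairs over-oxidised peroxiredoxins. Its controls were at 16.9 and 17.8 FPKM, its overexpression libraries at 31.2 and 29.9, and its knockdown libraries at 18.2 and 18.8. The overexpression libraries were far above the other 4, and the rise of 0.78 ± 0.05 (SE; limma, adjusted p = 0.00112) was called in all 17 alternative fits. Txnrd1, the cytosolic thioredoxin reductase gene, was among the most strongly expressed genes that rose, at 139 and 147 FPKM in control libraries and 183 and 179 under overexpression. Its log2 fold change was 0.34 ± 0.05 (limma, adjusted p = 0.0187), and under knockdown it stood at 126 and 131 FPKM, below the controls. Cat, the catalase gene, went from 9.96 and 9.61 FPKM to 13.2 and 13.3 without overlap (0.40 ± 0.06; limma, adjusted p = 0.0171). The other 18 genes were not called. Among them were the abundant Txn1, the thioredoxin that Txnrd1 reduces, with a log2 fold change of 0.05 ± 0.06, and the peroxiredoxins Prdx1 (-0.02 ± 0.05) and Prdx2 (-0.19 ± 0.06). The list's median was -0.02.

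Among the quinone, carbonyl, heme and iron enzymes 5 of 31 tested rose and 0 fell, with a median of 0.10. Over all tested genes 0.69% were called higher and 0.849% lower. At an unadjusted p under 0.05, 12 of the 31 were higher and 2 lower. Both overexpression libraries lay above both controls in 15 of the 31, against 23.3% of all genes, and below them in 5, against 26.2%. Osgin1, an oxidative-stress-induced growth inhibitor gene, showed the largest change, from 2.73 and 3.26 FPKM in control libraries to 8.28 and 6.14 under overexpression. The groups were well apart, although the overexpression libraries differed from each other, and the log2 fold change was 1.03 ± 0.12 (limma, adjusted p = 0.00988). Nqo1, a quinone reductase and a standard NRF2 target, went from 8.33 and 9.71 FPKM to 14.6 and 14.1, or 0.62 ± 0.10 (limma, adjusted p = 0.0229). Under knockdown Nqo1 stood at 7.96 and 9.75 FPKM, overlapping the controls. The others that rose were Ptgr1 (0.52 ± 0.08), which reduces prostaglandins and reactive alkenals, Blvrb (0.51 ± 0.06), a biliverdin reductase, and Esd (0.47 ± 0.09), which takes part in formaldehyde removal. Hmox1, the heme oxygenase gene and another standard NRF2 target, was at 37.5 and 46.6 FPKM in control libraries and at 60.3 and 51.5 under overexpression. Its libraries did not overlap, but the difference of 0.41 ± 0.10 missed the threshold (limma, adjusted p = 0.102).

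In glutathione synthesis and use, 1 of 22 tested genes rose and 1 fell, and the median was 0.07. The shares called over all tested genes were 0.69% higher and 0.849% lower. Gss, the glutathione synthetase gene, went from 5.61 and 5.74 FPKM to 7.26 and 8.09 (0.38 ± 0.07; limma, adjusted p = 0.0374). Glrx, which encodes glutaredoxin, a reducer of glutathionylated proteins, went the other way, from 15.3 and 17.0 FPKM to 0.682 times their mean (-0.51 ± 0.07; limma, adjusted p = 0.0124). Neither gene's groups overlapped. The cystine importer gene Slc7a11 was at 7.86 and 10.9 FPKM in controls and at 17.7 and 12.1 under overexpression, a spread too wide for a call (0.61 ± 0.22; limma, adjusted p = 0.198). Both subunits of the rate-limiting enzyme of glutathione synthesis were uncalled, Gclm at 0.19 ± 0.05 and Gclc at -0.01 ± 0.07. In NADPH supply 1 of 10 tested genes rose, with a list median of -0.00. This was Pgd, an enzyme of the pentose phosphate pathway, with controls at 53.9 and 56.3 FPKM, overexpression at 70.7 and 70.1 and knockdown at 36.7 and 41.2. The overexpression libraries were above the controls (0.35 ± 0.06; limma, adjusted p = 0.0336) and the knockdown libraries below them (-0.49; limma, adjusted p = 0.000448). The malic enzyme gene Me1 (0.28 ± 0.07) and the first enzyme of the pathway, G6pdx (0.15 ± 0.06), were not called.

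The regulators of the pathway were not called. Of 9 tested, 5 were higher and 0 lower at an unadjusted p under 0.05, against 846 and 987 of all 10721 genes. Their median was 0.21. Nfe2l2, the NRF2 gene itself, was at 18.0 and 19.2 FPKM in controls and at a mean of 22.7 with overexpression, and its knockdown libraries were at 23.6 and 22.9. Both overexpression libraries were above both controls, but the difference of 0.27 ± 0.06 did not pass (limma, adjusted p = 0.0594). Sqstm1, whose product p62 sequesters KEAP1, was at 192 and 223 FPKM against 275 and 244 (0.32 ± 0.08; limma, adjusted p = 0.0977), and Keap1 at -0.10 ± 0.06. Of the 11 called genes in these 5 groups of redox genes, Srxn1 alone was called in all 6 fits that leave out a library, Osgin1 in 5, Blvrb in 4 and Glrx in 3. The other 7 were called in 2, those without a knockdown library.

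**Figure D2:**
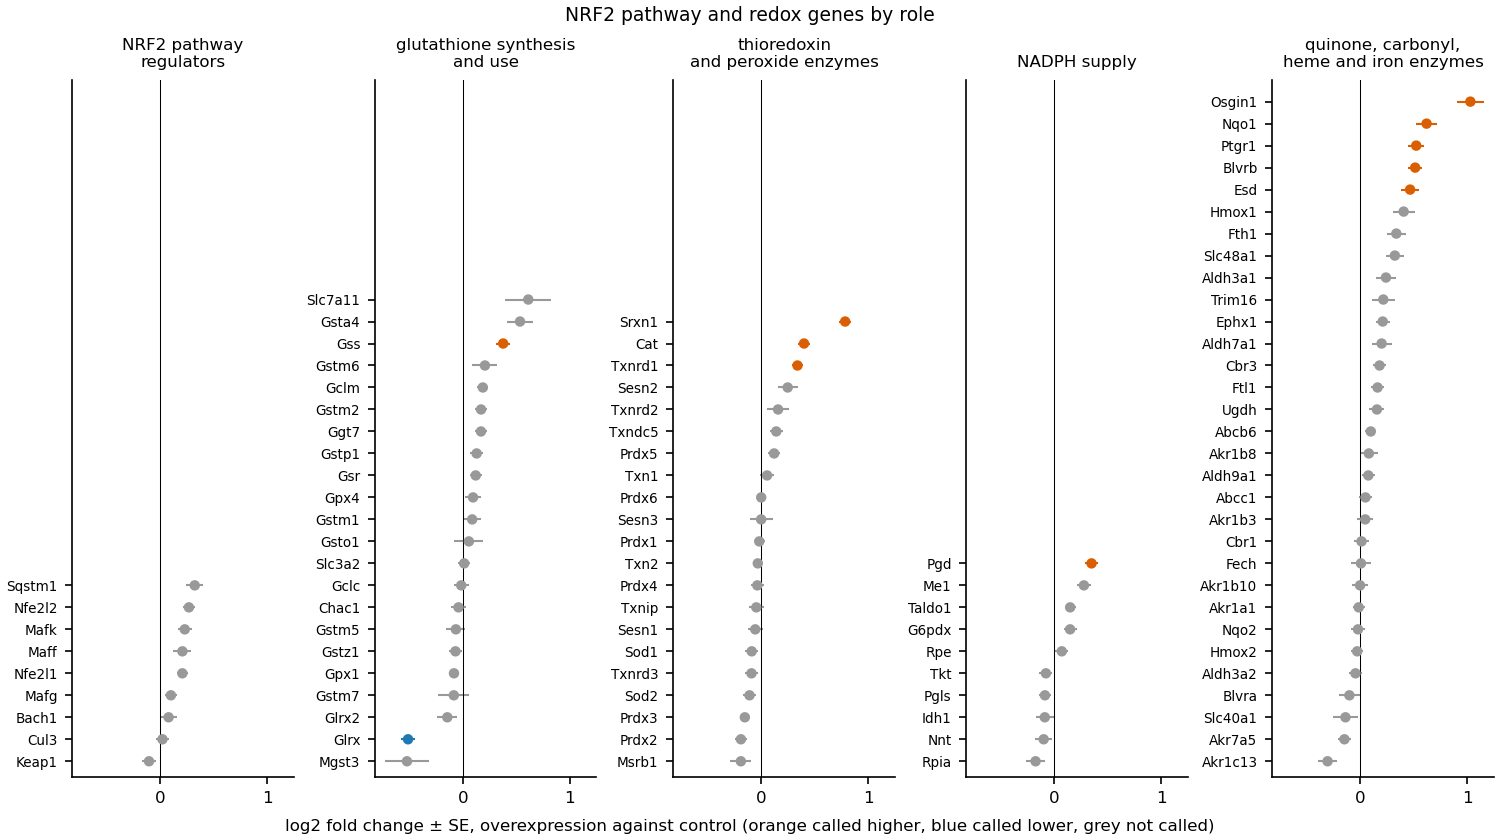
Points are log2 fold changes, overexpression against control, and bars their SE, for each tested gene of 5 groups of NRF2 and redox genes, with orange called higher, blue called lower and grey not called. Osgin1 and Srxn1 stand furthest to the right of their groups at 1.03 and 0.78, and Glrx is the single call to the left.

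The promoters of Srxn1 and Osgin1 are shown because they carry, on either strand, the heptamer TGACTCA, an AP-1 site that also forms part of many antioxidant response elements. No marked match fits the antioxidant response element core TGACNNNGC, and the printed bases of neither gene hold that core. Srxn1, but not Osgin1, held it in the longer stretch searched below. Each run is the 250 bases before the RefSeq start site on build GRCm38.p6, written 5′ to 3′ on the gene's strand, with the heptamer in capitals. The Srxn1 window is chr2:152105274-152105523 on the plus strand, with matches from 102 to 96 and from 45 to 39 bases before the start. The Osgin1 window is chr8:119436897-119437146 on the plus strand, with 1 match from 97 to 91 bases before the start.
Srxn1: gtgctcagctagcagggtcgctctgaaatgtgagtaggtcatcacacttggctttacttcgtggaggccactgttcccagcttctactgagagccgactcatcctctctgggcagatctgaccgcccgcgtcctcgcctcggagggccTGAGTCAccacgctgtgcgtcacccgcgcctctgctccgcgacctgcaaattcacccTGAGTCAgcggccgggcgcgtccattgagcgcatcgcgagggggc
Osgin1: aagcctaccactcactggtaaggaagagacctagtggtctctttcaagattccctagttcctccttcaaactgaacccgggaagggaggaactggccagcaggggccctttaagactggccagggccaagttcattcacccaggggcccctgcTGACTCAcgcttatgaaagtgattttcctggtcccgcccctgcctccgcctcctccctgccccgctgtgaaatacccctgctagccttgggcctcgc

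Among the genes called higher, 11 of 57 with a RefSeq promoter (19.3%) held TGACTCA within 250 bases before to 50 after a start site, on either strand. The share was 5 of 73 (6.85%) for genes called lower and 370 of 8558 (4.32%) for all tested genes. The 11 genes were Capn6, Cxcl10, F3, Fblim1, Gm364, Osgin1, Pnlip, Prr9, Srxn1, Tmem37 and Trim54. Pnlip and Trim54 were tested only because of their level under overexpression, and the share without such genes was not computed. The antioxidant response element core TGACNNNGC, which overlaps TGACTCA where that is followed by GC, was held by 24.6% of genes called higher, 21.9% of those called lower and 17.2% of all. Shares for the interferon response element part GAAANNGAA were 12.3%, 5.48% and 7.96%, and for the NF-kB site part GGANNTTCC 8.77%, 5.48% and 5.39%. The E-box CACGTG was held by 12.3%, 13.7% and 12.0%, and the ETS site CGGAAG by 24.6%, 21.9% and 37.8%. The mean number of windows per gene was 1.30, 1.25 and 1.28, so genes of each set had a similar number of searched stretches. A match is a description of these letters and not of a factor bound there.

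Few genes of interferon signalling and inflammation were called. Of 12 tested chemokines and cytokines 2 rose and 0 fell, with a median of 0.28. Of 31 interferon-induced genes 1 rose and 0 fell, with a median of 0.13. Over all tested genes 0.69% were called higher and 0.849% lower. At an unadjusted p under 0.05, 5 of the 12 were higher and 0 lower, and 9 of the 31 higher and 1 lower. Both overexpression libraries lay above both controls in 6 of the 12 and 14 of the 31, against 23.3% of all genes. Both lay below in 0 and 3, against 26.2%. Ccl5, a chemokine that draws T cells and monocytes, was low in control libraries, at 0.431 and 1.05 FPKM, and stood at 5.19 and 4.16 under overexpression. Under knockdown it was at 1.04 and 1.74 FPKM, so only the overexpression libraries stood well above the controls (1.72 ± 0.19; limma, adjusted p = 0.00742). Cxcl10, an interferon-induced chemokine, went from 9.93 and 9.08 FPKM to 15.9 and 16.8 (0.72 ± 0.10; limma, adjusted p = 0.0177), and its knockdown libraries were at 15.7 and 12.2. Isg15, a ubiquitin-like modifier induced by interferon, went from 8.50 and 8.47 FPKM to 16.1 and 16.8 (0.88 ± 0.09; limma, adjusted p = 0.0056), with knockdown at 17.1 and 13.8. For both genes all 4 treated libraries were above the controls that they share. Other interferon-induced genes were not called, among them Oasl2 (0.34 ± 0.10), Rsad2 (0.26 ± 0.11) and the transcription factor gene Irf1 (0.15 ± 0.06). Il6 was at 5.39 and 6.35 FPKM against 8.57 and 7.68 (0.41 ± 0.09; limma, adjusted p = 0.0665). Of 23 NF-kB subunits, inhibitors and targets 0 were called by limma. At an unadjusted p under 0.05, 8 of them were higher and 0 lower, against 846 higher of all 10721 genes. In 15 of the 23 both overexpression libraries lay above both controls, against 23.3% of all genes, and the median was 0.11. Ccl5 and Isg15 were called in 5 of the 6 fits that leave out a library and Cxcl10 in 2.

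The promoters of Isg15 and Cxcl10 are shown because they hold matches to the interferon response element part GAAANNGAA and the NF-kB site part GGANNTTCC. Capitals mark these matches, which in Isg15 overlap in a run of 3, and in Cxcl10 also a TGACTCA site on the other strand that overlaps TGACNNNGC. Each run is the 250 bases before the RefSeq start site on build GRCm38.p6, 5′ to 3′ on the gene's strand. The windows are chr4:156200819-156201068 on the minus strand for Isg15 and chr5:92348890-92349139 on the minus strand for Cxcl10.
Isg15: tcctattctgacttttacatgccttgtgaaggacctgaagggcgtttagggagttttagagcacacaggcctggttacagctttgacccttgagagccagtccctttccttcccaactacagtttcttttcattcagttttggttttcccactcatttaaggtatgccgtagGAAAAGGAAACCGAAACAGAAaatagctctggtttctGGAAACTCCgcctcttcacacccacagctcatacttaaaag
Cxcl10: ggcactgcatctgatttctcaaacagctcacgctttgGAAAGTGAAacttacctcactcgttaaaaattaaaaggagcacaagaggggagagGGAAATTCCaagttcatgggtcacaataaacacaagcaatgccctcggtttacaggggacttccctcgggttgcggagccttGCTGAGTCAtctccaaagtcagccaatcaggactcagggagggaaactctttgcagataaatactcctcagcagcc

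Caveolae are flask-shaped pits of the plasma membrane, coated by cavins. The 2 called genes of 8 tested both encode cavins and moved in opposite directions. Prkcdbp, which encodes cavin-3, was at 2.37 and 2.00 FPKM in controls, 8.76 and 8.75 with overexpression and 0.750 and 0.907 with knockdown. The 3 groups were well separated, with overexpression highest and knockdown lowest, and the log2 fold change against control was 1.62 ± 0.09 for overexpression (limma, adjusted p = 0.000335) and -0.80 for knockdown (adjusted p = 0.000287 by the same test). Prkcdbp lies on chromosome 7 from 105480083 to 105482300 on the minus strand of GRCm38 and shares exon bases with Gm45667 on the opposite strand. Sdpr, which encodes cavin-2 and was far more abundant, went from 42.4 and 42.9 FPKM to 31.0 and 34.0 under overexpression (-0.39 ± 0.06; limma, adjusted p = 0.0177), and was at 28.5 and 28.2 under knockdown. Ptrf, the gene of the main coat protein cavin-1, was at 7.24 and 7.85 FPKM against 9.33 and 9.42 and missed the threshold (0.28 ± 0.07; limma, adjusted p = 0.112).

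Of 29 tested genes of basement membrane and collagen folding, 2 rose and 0 fell, with a median of 0.06. The shares called over all tested genes were 0.69% higher and 0.849% lower. Fkbp10, a collagen-folding isomerase of the endoplasmic reticulum, went from 0.801 and 0.648 FPKM to 3.16 and 2.81 (1.21 ± 0.10; limma, adjusted p = 0.00164). Col4a1, a chain of the basement membrane collagen, went from 25.5 and 27.2 FPKM to 37.0 and 34.9 (0.44 ± 0.06; limma, adjusted p = 0.0109). Its partner chain Col4a2, transcribed in the opposite direction from a shared promoter region, was at 68.0 and 71.9 FPKM against 77.1 and 75.1 and was not called (0.12 ± 0.05; limma, adjusted p = 0.252). Reads in the exon bases that the pair shares cannot be assigned without the strand setting. Among other secreted matrix genes 1 of 21 rose and 3 fell. Igfbp7, an insulin-like growth factor binding protein of the matrix, went from 3.53 and 3.95 FPKM to 8.41 and 7.23 (0.89 ± 0.08; limma, adjusted p = 0.00366). Wfdc1 (-0.75 ± 0.14), a secreted whey-acidic-protein family member, Matn3 (-0.63 ± 0.10), the cartilage matrix protein matrilin-3, and Tnr (-0.44 ± 0.08), the neural matrix protein tenascin-R, fell. Of 22 proteinases and inhibitors, Timp1, which blocks matrix metalloproteinases, rose, and Mmp15, a membrane-bound metalloproteinase, fell. Controls of Timp1 were at 2.76 and 3.61 FPKM, overexpression at 6.61 and 6.31 and knockdown at 11.8 and 11.5, so that all treated libraries were above the controls (overexpression 0.84 ± 0.09; limma, adjusted p = 0.00742). Mmp15 went from 57.8 and 53.5 FPKM to 34.8 and 42.8 (-0.52 ± 0.10; limma, adjusted p = 0.0445).

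The largest rise among called genes was in Lgals7, which encodes galectin-7, a lectin of stratified epithelia. Controls were at 0.473 and 0.292 FPKM, overexpression at 3.98 and 4.29 and knockdown at 0.932 and 1.56. Overexpression was clearly highest, with no overlap (1.90 ± 0.14; limma, adjusted p = 0.00128). It was the single call among 9 tested galectins. Lgals7 reached the mean of 1 FPKM only through the overexpression libraries, as did Cacng4, Pnlip and Trim54 among called genes, and so was tested because it is high there. Reg3b reached it only through the controls. Another skin-barrier gene, Prr9, went from 2.49 and 2.89 FPKM to 6.66 and 5.06 (0.89 ± 0.12), and Cyp4b1, a cytochrome P450 listed with it, fell by 0.63 ± 0.12, to 6.09 and 4.89 FPKM. Of 9 tested epithelial and skin barrier transcripts 2 rose, Lgals7 and Prr9, and 1 fell, with a median of 0.15. The stratified-epithelium gene Sprr1a (0.77 ± 0.19; limma, adjusted p = 0.0938) and the keratin gene Krt17 (0.63 ± 0.21; 0.172) were not called. Npy, the neuropeptide Y gene and the single call among 16 tested neuropeptide, granin and processing genes, rose by 0.88 ± 0.08, from 1.90 and 1.66 FPKM to 3.94 and 4.28. Alpl, tissue-nonspecific alkaline phosphatase, rose by 0.82 ± 0.09 and Plekhg1 by 0.79 ± 0.07. Serpinf1, a secreted factor known for neurotrophic activity, rose by 0.76 ± 0.14, and Capn6, a calpain-family protein that binds microtubules, by 0.72 ± 0.13. Tmem37 rose by 0.71 ± 0.11 and Tinagl1, a matrix protein, by 0.70 ± 0.13. From Npy to Tinagl1, overexpression means were 1.73 (Tinagl1) to 2.48 times (Serpinf1) the control mean in FPKM.

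**Figure D3:**
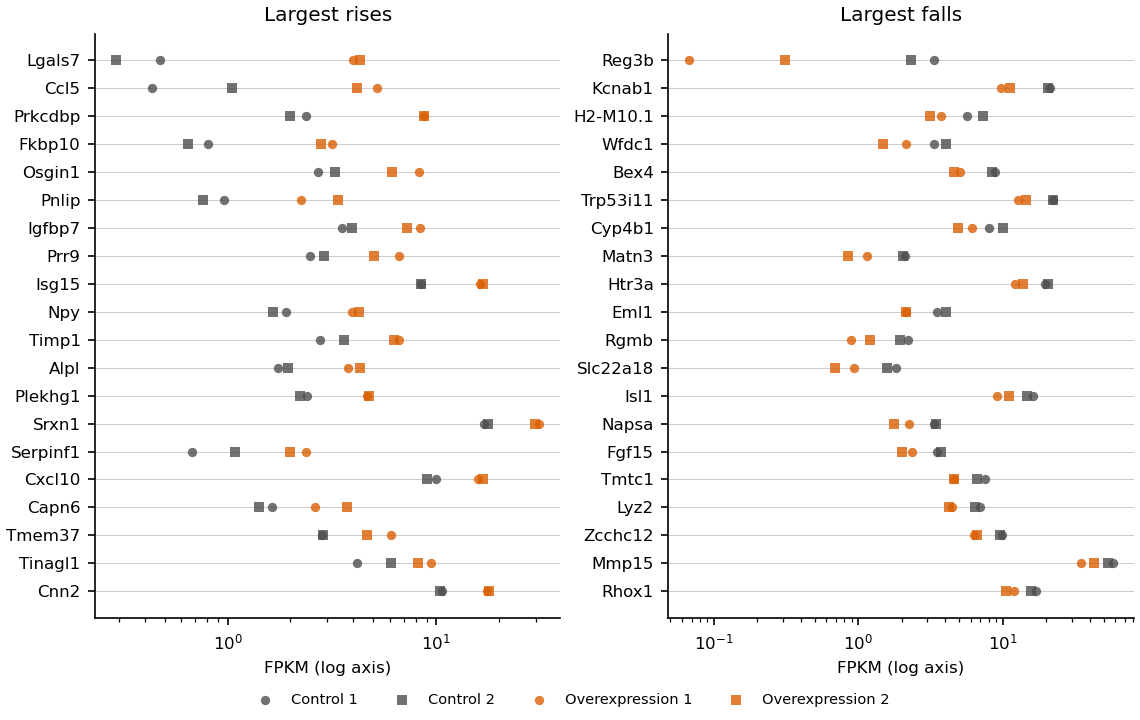
FPKM on a log axis in each control (grey) and overexpression (orange) library for the 20 largest rises and the 20 largest falls among called genes, with circles for replicate 1 and squares for replicate 2. No gene's groups overlap, and most of the genes shown lie under 10 FPKM in all 4 libraries.

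Genes of the actin cytoskeleton were among the rises, but they were picked out after their values were seen and belong to no list. Cnn2, the actin-binding calponin-2, stood at 17.5 and 17.8 FPKM with overexpression, 1.68 times the control mean (0.69 ± 0.05; limma, adjusted p = 0.00164), and its knockdown libraries were at 18.8 and 17.7. It was called in all 17 alternative fits. Fblim1 (0.52 ± 0.09) links filamin to adhesion sites, Lima1 (0.42 ± 0.06) crosslinks actin filaments, and Tpm1 (0.36 ± 0.06) is a tropomyosin that lies along them. Itga5 (0.51 ± 0.10), the alpha chain of the fibronectin receptor, and Vav2 (0.38 ± 0.06), a guanine nucleotide exchange factor, also rose, while the actin monomer binder Pfn2 (-0.32 ± 0.06) fell. The genes from here to Cstb were chosen in the same way. Bves and Popdc3, members of the Popeye family of cyclic-AMP-binding membrane proteins and neighbours on chromosome 10, rose by 0.66 ± 0.12 and 0.65 ± 0.09. Mcts2 rose by 0.58 ± 0.06 while Mcts1, from which it is a near-identical retrocopy, fell by 0.36 ± 0.07, and how reads were divided between the copies is uncertain. Peg10, an imprinted gene of retrotransposon origin, went from 22.1 and 18.7 FPKM to 33.7 and 33.4 (0.69 ± 0.09). Cstb, the cysteine proteinase inhibitor cystatin B, had the highest control level among genes that rose, at 265 and 304 FPKM, and stood at 373 and 370 under overexpression (0.39 ± 0.07). Pkm, the pyruvate kinase of glycolysis and 1 of 33 tested genes of glycolysis and hypoxia, went from 225 and 232 FPKM to 279 and 282 (0.30 ± 0.05), while the list's median was 0.04.

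Neuronal genes held more falls than rises. Of 15 neuroblastoma and sympathetic neuron markers 13 reached 1 FPKM. Their summed level was 1491 and 1478 FPKM in controls and 1307 and 1388 with overexpression, lower in both overexpression libraries, and its part in the falls was not tested. In bulk RNA, fewer cells with these transcripts and less of them per cell cannot be told apart. Of 39 tested genes of the synaptic vesicle and active zone 4 fell and 0 rose, with a median of -0.08, against 0.849% of all tested genes called lower. In 21 of the 39 both overexpression libraries lay below both controls, against 26.2% of all genes. Sv2c, a vesicle glycoprotein, went from 65.1 and 65.5 FPKM to 51.2 and 50.5 (-0.35 ± 0.04; limma, adjusted p = 0.0109). Syp, synaptophysin, went from 25.1 and 24.5 FPKM to 19.2 and 19.8 (-0.33 ± 0.05; limma, adjusted p = 0.0207). Sncg, gamma-synuclein, fell by 0.35 ± 0.06 and Rab3c, a small GTPase of secretory vesicles, by 0.28 ± 0.05. Vamp2, the vesicle SNARE, was at 40.0 and 42.1 FPKM against 33.8 and 34.8 and just missed the threshold (-0.25 ± 0.05; limma, adjusted p = 0.0523). Sv2c and Rab3c lie on chromosome 13, whose genes were lower in general, and without that chromosome the list's median was -0.07 with 2 of 35 called lower.

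Of 5 tested nicotinic and serotonin-gated receptor genes 2 fell, against 0.849% of all tested genes, and the list's median was -0.29. Chrna5 (-0.14 ± 0.10), Chrna7 (-0.29 ± 0.17) and Chrnb2 (0.01 ± 0.06), all nicotinic subunits, were not called. Htr3a, the serotonin-gated channel subunit, went from 19.8 and 20.7 FPKM in controls to 12.1 and 13.8 with overexpression, and stood at 7.17 and 7.96 under knockdown. Chrna3, the nicotinic subunit typical of sympathetic ganglia, went from 48.8 and 45.2 FPKM to 34.8 and 38.2, with knockdown at 22.8 in both libraries. In both genes overexpression lay between control and knockdown without overlap, with log2 fold changes of -0.61 ± 0.08 (limma, adjusted p = 0.0109) and -0.36 ± 0.06 (limma, adjusted p = 0.0328). In sympathetic and cholinergic identity, 1 of 16 tested genes fell and 0 rose, with a median of -0.12. This was Isl1, a homeobox gene of sympathetic and motor neurons, at 16.1 and 14.8 FPKM against 9.21 and 11.1 (-0.56 ± 0.09; limma, adjusted p = 0.0218). The noradrenergic regulator Phox2a was at 237 and 210 FPKM against 184 and 211, with the groups overlapping. Th, tyrosine hydroxylase, the first enzyme of noradrenaline synthesis, pointed the other way at 4.99 and 4.67 FPKM against 5.67 and 7.24 (0.35 ± 0.12; limma, adjusted p = 0.205).

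In the tubulin and neuronal cytoskeleton list 3 of 47 tested genes fell and 0 rose, with a median of -0.06, against 0.849% of all tested genes called lower. Tubb3, neuronal beta-tubulin, had the highest control level of all called falls, at 397 and 388 FPKM, with overexpression at 313 and 337 and knockdown at 246 and 253 (overexpression -0.27 ± 0.05; limma, adjusted p = 0.047). The Tubb3 call was lost in each of the 6 fits that leave out a library. Nrn1, the neurite-promoting neuritin, fell by 0.46 ± 0.08, and Eml1, a microtubule-binding protein, by 0.61 ± 0.08. The axon guidance list was written with earlier results of these data known and holds Plekhg1, which is not of its ligand and receptor families. In this list Plekhg1 rose and 2 of 33 tested genes fell. The falls were the repellent Slit2 (-0.45 ± 0.06), from 26.3 and 25.2 FPKM to 18.4 and 18.8, and the BMP co-receptor Rgmb (-0.59 ± 0.11), from 2.20 and 1.95 FPKM to 0.887 and 1.21. Among 24 regeneration-associated genes, Npy rose and Tubb3 and Nrn1 fell, and the median was 0.01. Sox11, a transcription factor of this list, was at 16.3 and 15.2 FPKM against 12.4 and 12.0 (-0.34 ± 0.07; limma, adjusted p = 0.0576), and the injury-induced Atf3 was at 15.4 and 19.2 against 24.6 and 20.8 (0.38 ± 0.11; 0.126). Of 14 tested retinoic acid response genes limma called 0, with 1 higher and 3 lower at an unadjusted p under 0.05. Of all 10721 genes 846 were higher and 987 lower at that threshold. Of 40 ion channel genes Cacng4, a calcium channel regulatory subunit tested only because of its level under overexpression, rose (0.66 ± 0.13), a call that held in 3 of 16 alternative fits and in 0 of the 6 that leave out a library. Kcnab1, a potassium channel beta subunit, had the largest fall outside the digestive list. Kcnab1 went from 21.2 and 20.5 FPKM to 9.72 and 11.3, and stood at 8.79 and 6.68 under knockdown, so that the controls were well above all treated libraries (-0.93 ± 0.11; limma, adjusted p = 0.00988).

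**Figure D4:**
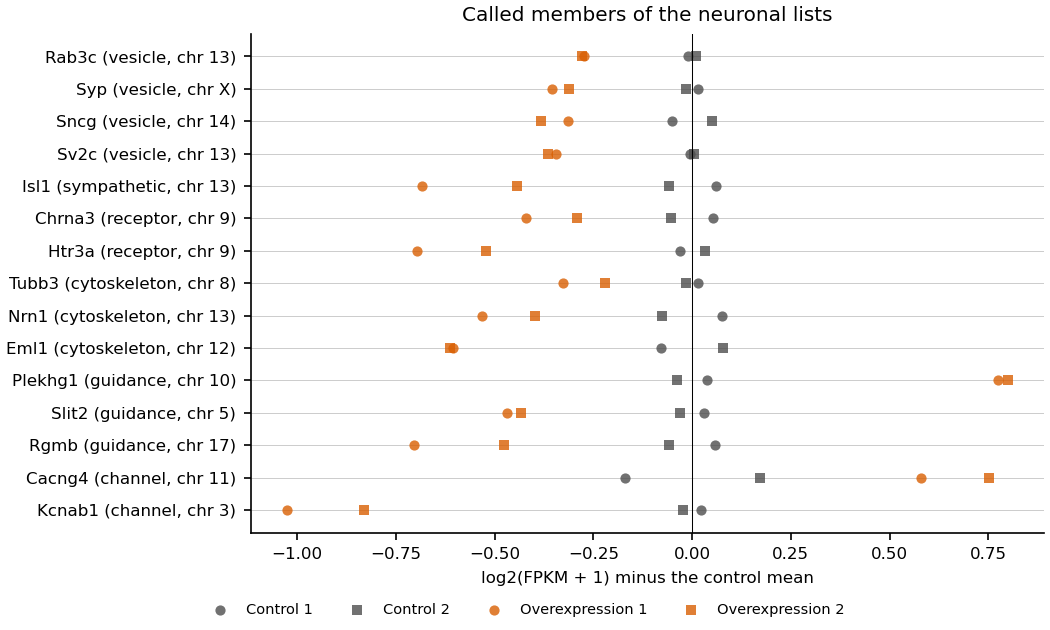
Points give log2(FPKM + 1) minus the control mean in each library for the 15 called members of 6 neuronal lists, with the list and chromosome beside each name, grey for control and orange for overexpression. Plekhg1 and Cacng4 lie to the right of the controls and the other 13 to the left, down to Kcnab1 at the bottom.

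Other falls were scattered over functions. Trp53i11, named for its induction by p53, went from 22.3 and 22.4 FPKM to 12.7 and 14.4 (-0.68 ± 0.07; limma, adjusted p = 0.0056). It was the single call among 25 tested p53 targets, whose median was 0.04, and the stress cytokine gene Gdf15 of the same list was at 17.1 and 20.5 FPKM against 27.3 and 28.3 (0.54 ± 0.11; limma, adjusted p = 0.0512). Bex4 went from 8.89 and 8.43 FPKM to 5.04 and 4.60 (-0.73 ± 0.08; limma, adjusted p = 0.0056), and in 5 of 7 tested members of its Bex and Tceal family, which lie close together on the X chromosome, both overexpression libraries were below both controls, against 46.0% of all tested genes of that chromosome and 26.2% of all genes. Further large falls were in Slc22a18, an organic cation transporter-like gene (-0.57 ± 0.11), Napsa, an aspartic proteinase (-0.54 ± 0.09), the growth factor gene Fgf15 (-0.53 ± 0.09), Tmtc1 (-0.53 ± 0.08), Zcchc12 (-0.52 ± 0.06) and the homeobox gene Rhox1 (-0.51 ± 0.07). H2-M10.1, a nonclassical class I histocompatibility gene with close copies, fell by 0.75 ± 0.12, and its reads are uncertain for that reason. It was the single call among 19 tested genes of MHC class I and peptide loading, whose median was 0.07. In mitosis 1 of 60 tested genes fell, the condensin gene Smc4, from 92.8 and 92.9 FPKM to 73.2 and 78.5 (-0.29 ± 0.05; limma, adjusted p = 0.0328). In 31 of the 60 both overexpression libraries were below both controls, against 26.2% of all genes, with a median of -0.06. Of 58 DNA replication genes limma called 0, with 1 higher and 8 lower at an unadjusted p under 0.05, and the median was -0.06. Both overexpression libraries were below both controls in 29 of the 58, against 26.2% of all genes. They were above both in 4, against 23.3%. Limma also called 0 of 37 genes of cholesterol and fatty acid synthesis (5 higher and 1 lower unadjusted), 0 of 38 of the unfolded protein and integrated stress response (4 and 1), 0 of 13 of the BCL2 family (2 and 0) and 0 of 35 immediate early genes (11 and 2). The unadjusted counts over all 10721 genes were 846 higher and 987 lower.

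The falls were not spread evenly over the genome. Chromosome 13 held 373 of the tested genes (3.50% of those placed on a chromosome) but 21 of the 89 placed falls (23.6%), and 0 of the 72 placed rises. Its genes were lower as a block, by a small amount. The median log2 fold change over the 373 genes was -0.12 and 79.4% were below 0, against -0.00 and 51.3% for all tested genes. The shift was the same in both overexpression libraries, at -0.114 and -0.115 relative to the control mean, while the control libraries lay at -0.011 and 0.011. Both overexpression libraries were below both controls in 60.9% of the genes, against 26.2% of all. The median was -0.11 over the 352 uncalled genes alone, -0.07 over genes under the median level of 9.41 FPKM and -0.15 over those at or above it. Along the chromosome, in windows of 20 Mb from its start, the medians were -0.06, -0.02, -0.10, -0.15, -0.15 and -0.13. Knockdown libraries, compared with the same controls, had a chromosome 13 median of -0.21.

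The largest shifts of the opposite sign were on chromosomes 2 and 10. Chromosome 2 held 13 rises and 1 fall among 858 tested genes, with a median of 0.07 and 26.2% of genes below 0. Srxn1, Cat, Gss and Mcts2 are among its rises, and Trp53i11 is its single fall. Chromosome 10 held 10 rises and 1 fall among 539, with a median of 0.07 and 24.1% below 0. Cnn2, Txnrd1, Plekhg1, Bves, Popdc3 and Cstb are among its rises, and Lyz2 is its fall. On the X chromosome, with 5 rises and 10 falls among 326 genes, the median was -0.07 and 72.4% were below 0. Smaller shifts were seen on chromosome 8, with a median of -0.04 and 69.5% below 0, and on chromosome 18, with a median of 0.04 and 32.2% below 0. Under knockdown the medians were -0.00 on chromosome 2, 0.02 on chromosome 10 and -0.21 on the X chromosome, against -0.07 over all genes. The overexpression libraries lay within 0.01 of each other on chromosomes 2, 10, 13 and X. When the median of each chromosome was removed in each library, an alternative chosen after seeing the data, 64 genes were higher and 54 lower. Of the calls on those 4 chromosomes, 5 of 21 were kept on chromosome 13, 7 of 14 on chromosome 2, 6 of 11 on chromosome 10 and 8 of 15 on the X chromosome. What these shifts come from was not tested.

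**Figure D5:**
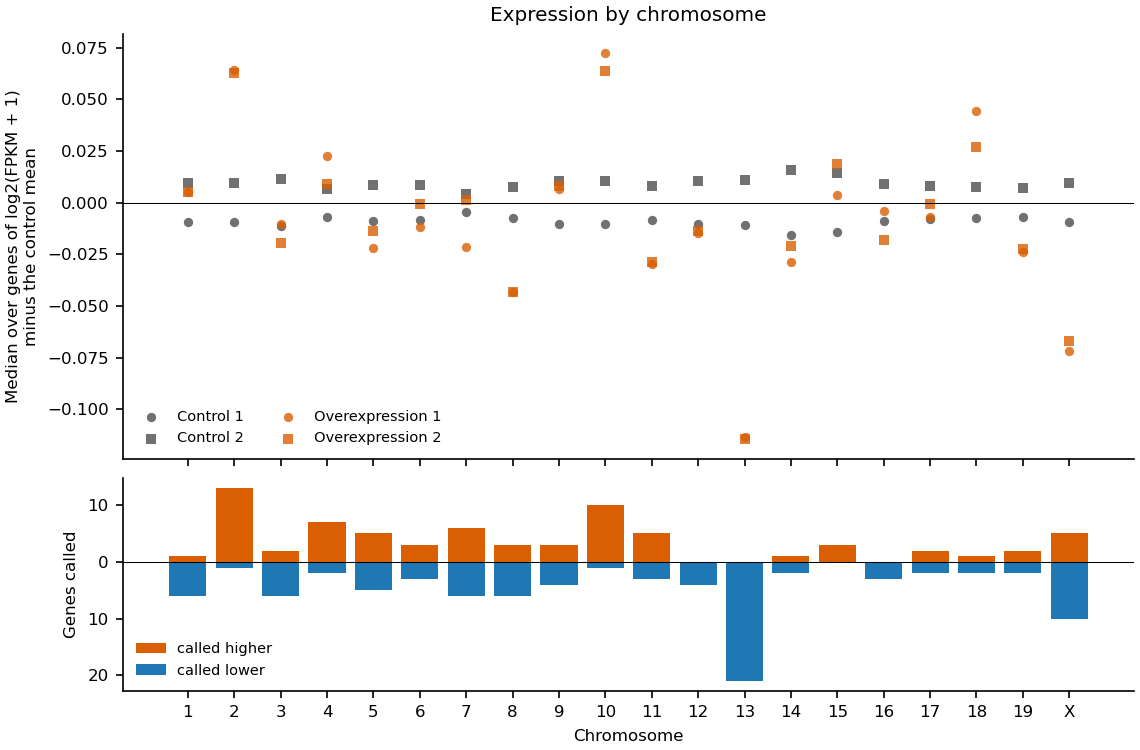
The upper panel gives, for each chromosome and library, the median over tested genes of log2(FPKM + 1) minus the control mean, and the lower panel the number of genes called higher (orange) and lower (blue). Both overexpression libraries sit near -0.114 on chromosome 13, and that chromosome has 21 genes called lower and 0 called higher.

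The genes that fell on chromosome 13 have varied functions, and apart from those of the lists they are named because of where they lie. F2r, the thrombin receptor PAR1, went from 70.0 and 70.9 FPKM to 53.7 and 57.4 (-0.34 ± 0.05), and its neighbour F2rl2, a related protease-activated receptor, fell by 0.44 ± 0.06. Sv2c, Poc5, a centriole protein, and Enc1, an actin-associated protein of neurons, follow within the same stretch, from 95601803 (F2r) to 97253034 (Enc1). Enc1 went from 203 and 214 FPKM to 156 and 160, without overlap, and stood at 207 and 205 under knockdown, within the range of the controls. Others were Sox4 (-0.27 ± 0.05), a transcription factor of neural progenitors, Jarid2 (-0.39 ± 0.06), a subunit of Polycomb complex PRC2, Sdha (-0.26 ± 0.05), succinate dehydrogenase, and Rasa1 (-0.35 ± 0.06), a Ras inhibitor. The remaining ones were Gprin1, Exoc3, Rhobtb3, Mblac2, Arsb, Serf1, Snx18 and Pelo, beside Glrx, Nrn1, Rab3c and Isl1. Once chromosome medians were removed, Sv2c (-0.25; limma, adjusted p = 0.0433), Glrx (-0.40; 0.0257), Enc1, F2rl2 and Snx18 were still called. Isl1 (-0.45; limma, adjusted p = 0.0536), Nrn1 (-0.36; 0.0979), Rab3c (-0.17; 0.154) and, on the X chromosome, Syp (-0.26; 0.0521) were not. Of the rises on chromosomes 2 and 10, Srxn1, Cat, Txnrd1, Cnn2 and Plekhg1 were still called and Gss (0.31; limma, adjusted p = 0.0746) was not.

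Pim1, which encodes a survival-promoting serine/threonine kinase and whose name the lncRNA carries, rose from 16.2 and 18.8 FPKM to 23.5 and 24.1 (0.43 ± 0.07; limma, adjusted p = 0.0294). It was higher by as much under knockdown, at 24.4 and 23.1 FPKM against the same controls (0.42 ± 0.07; limma, adjusted p = 0.00179), so both treated groups lay above the controls. The overexpression call held in 11 of 17 alternative fits and was lost, among others, without the filter on low values, without the expression trend and with a replicate block. Pim1 shares exon bases with Gm26885 on the opposite strand. The kinases Pim2 and Pim3 were not called. Pim1 lies on chromosome 17 from 29490753 to 29496112 of GRCm38. Of 11 tested genes within 300000 bases of it, itself included, Pim1 was the single call. Its nearest tested neighbours, Fgd2 (-0.10 ± 0.09) and Tbc1d22b (0.01 ± 0.06), had differences near or under their SE. Mtch1, a mitochondrial outer membrane protein, was at 52.7 and 52.1 FPKM against 44.7 and 45.9 and missed the threshold (-0.21 ± 0.05; limma, adjusted p = 0.0677). The median over chromosome 17 was 0.00.

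Markers of other cell types were mostly low in the 4 libraries. None of 9 fibroblast markers, 7 astrocyte markers or 6 red blood cell markers reached 1 FPKM, and fibroblast sums, beside the rises of matrix genes, were 1.30 and 1.43 FPKM in control libraries and 1.32 and 1.14 under overexpression. Of 10 Schwann cell and oligodendrocyte markers Pmp22, Mbp and Cnp reached it, with sums of 93.1 and 95.8 FPKM in controls and 85.0 and 88.3 with overexpression, of which Pmp22 made up most. Of 8 endothelial markers Pecam1 and Vwf reached it, with sums of 3.82 and 4.25 FPKM against 4.51 and 4.86. Of 10 macrophage markers Lyz2 alone reached 1 FPKM, and it fell by 0.52 ± 0.08, from 6.96 and 6.39 FPKM to 4.48 and 4.22. The macrophage sum went from 7.54 and 6.98 FPKM to 5.50 and 5.11, beside the rises of the chemokine genes. Lyz2 made up most of that sum and set its direction. Cd68, the next highest marker, was at 0.348 and 0.397 FPKM in controls and at 0.528 and 0.570 with overexpression. The remaining markers lay lower still and moved in both directions. Of 8 epithelial markers Krt8 alone reached 1 FPKM, with sums of 2.94 and 2.80 FPKM against 2.45 and 3.26, beside the rises of Lgals7 and Prr9. Transcripts of the digestive tract were present at low levels. Of 18 tested, Pnlip, pancreatic lipase, rose from 0.957 and 0.758 FPKM to 2.24 and 3.38 (1.02 ± 0.15; limma, adjusted p = 0.0177). Its knockdown libraries averaged 0.0774 FPKM, and it entered the test only through overexpression. Reg3b, a lectin of intestine and pancreas with close copies, fell from 3.37 and 2.32 FPKM to 0.0677 and 0.310 (-1.69 ± 0.15; limma, adjusted p = 0.00323) and entered it only through the controls. Summed over all 53 listed digestive genes the controls came to 83.5 and 77.4 FPKM, overexpression to 77.2 and 97.1 and knockdown to 33.4 and 34.2. The source of these transcripts and its part in the changes of Pnlip and Reg3b were not tested.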

How the data were processed

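RNA from Neuro-2a cells was read as poly(A)-selected stranded libraries, per the labels' protocols. The authors deposited FPKM values per gene symbol and library. Trimmomatic, HISAT2, Cufflinks, HTSeq and DESeq and build mm10 are named in the submitters' processing notes; the annotation, filters and handling of strand, as well as versions, were not given in the sources used here. Each FPKM value depends on the library's total, so abundant genes shift all others. Absolute depth is unknown: relative to control 1, steps between low values put control 2 at 0.978 and the overexpression libraries at 1.02 and 0.884, and no interval for counting error is given.

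Genes whose mean over the 6 libraries reached 1 FPKM were transformed to log2(FPKM + 1), which understates changes of low genes. A mean for each of 3 groups of 2 libraries was estimated by limma 3.58.1 (R 4.3.3) with 3 residual degrees of freedom, and variances were moderated by empirical Bayes with a trend on expression. Contrasts were adjusted by the Benjamini-Hochberg method over all 10721 genes and called at an adjusted p under 0.05. The script was checked on simulated data. Alternatives changed the pseudocount, filter, scaling, trend, libraries and block, and each library was left out in turn.

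A rule for naming genes took the 20 largest rises and 20 largest falls among called genes without overlap, leaving out predicted models. It also took every called member of a gene list, up to 4 uncalled members of each list by smallest p, the Pim kinases and genes within 300000 bases of Pim1. Not every uncalled gene that met this rule is printed. Other genes were chosen outside it, among them the uncalled Txn1, Prdx1, Gclc, Slc7a11, Keap1, Rsad2, Irf1, Col4a2 and Phox2a. Gene lists, markers and this rule were chosen with earlier results of these data known, and lists are described by counts and medians without a set test. GENCODE release M 21 on GRCm38 gave coordinates for 99.3% of tested symbols; promoters are RefSeq windows on GRCm38.p6, found for 8558 tested genes. Of the called genes, 49 share exon bases with another gene, 41 of them on the opposite strand, so their reads may be divided wrongly. In 27 rows a date stands for the symbol, and 2 of these were called lower and are not named. Same-numbered libraries deviated from their group means with a correlation of -0.117 between control and overexpression. It was 0.00692 between control and knockdown and -0.211 between overexpression and knockdown. These values give no sign of pairing by number, but cannot show whether libraries were prepared in pairs.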

Additional observations from a re-analysis of the deposited data

How the results depend on the processing

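No called gene changed sign in those of 17 alternative fits that tested it, of which 2 were chosen after seeing the data; the filter at 5 FPKM tested 118 of the 165. Against 165 called genes, 74 higher and 91 lower, no filter on low values gave 9 (9 higher and 0 lower), a filter at 5 FPKM 131 (48 and 83), and no expression trend 97 (53 and 44). Of these, in the same order, 3, 118 and 88 were among the 165. With each library left out in turn the counts ranged from 14 to 172 in all, 12 to 80 higher and 2 to 92 lower. With the replicate block 66 were called (37 and 29). The labels share replicate numbers, and the deviations give no sign of pairing but cannot show whether libraries were prepared in pairs. The crossed replicate block, chosen after seeing the data because the correlation was negative, gave 258 (132 and 126). With chromosome medians removed there were 118 (64 and 54). Pseudocounts of 0.1 and 0.5, scaling by median log ratio, quantile normalization and a fit of only the 4 libraries gave 138 to 189. In the fits that leave out a control or overexpression library a group holds a single library, so fewer samples enter. For the other losses the cause was not tested. With 2 libraries a group and a median SE of 0.07, differences under 0.23 on the log2 scale were not called in any gene.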
